A study of Mus musculus with 12 samples.

Results

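The genes described here encode interferon-induced GTPases of mouse CD8+ T cells. They comprise 8 guanylate-binding proteins, Gbp2, Gbp3, Gbp4, Gbp5, Gbp6, Gbp7, Gbp8 and Gbp9, and 2 immunity-related GTPases, Igtp and Irgm1. They were listed by name, as GBP and IRG family members, at a time when earlier results of these data were known, and are 10 of the 52636 gene identifiers in the count table. All 10 passed the filter on low counts, both with all 12 libraries and with the 10 libraries defined below.

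Guanylate-binding proteins (GBP) are large GTPases that bind GTP, assemble on membranes and coat the vacuoles of intracellular parasites and the surface of cytosolic bacteria. The immunity-related GTPases (IRG) are a smaller class of such enzymes. Igtp and Irgm1 belong to its regulatory branch, which sits on the membranes of the host and keeps effector IRG proteins off them. Both families are known above all as genes that interferon gamma switches on, in part through the transcription factor IRF1, and T cells are both a source of interferon gamma and a target of it.

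CD8+ T cells were sorted at day 21 from subcutaneous AT3ova tumors, a mouse mammary carcinoma line that expresses ovalbumin, started with 500000 cells per mouse. The hosts of every group were female C57BL/6 mice, 6 to 16 weeks of age, that carry the transgene Tg(Adora2a-EGFP)EP141Gsat, and each library was pooled from 3 mice. In this transgene eGFP stands at the start codon of Adora2a, which encodes the adenosine receptor A2AR, in a bacterial artificial chromosome, so GFP reports the activity of the Adora2a regulatory sequences on that construct rather than receptor protein. The study asked how A2AR-expressing tumor-infiltrating CD8+ T cells differ from those without the receptor and how anti-PD-L1, an antibody against the ligand of PD-1, bears on both. The 4 groups of 3 libraries were GFP− and GFP+ cells from non-treated (NT) mice and GFP− and GFP+ cells from mice given anti-PD-L1 at days 14 and 18.

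Reads came from the 3′ ends of transcripts (QuantSeq), and 11292699 to 19023900 were counted on genes per library. Levels are given as CPM, counts scaled to 1000000 per library after TMM normalization. No member had fewer than 300 counts in any library, though in the groups whose libraries lie closest together, such as Gbp6 in NT GFP− cells, the spread is no larger than counting error. Adora2a itself was 1.51 higher on the log2 scale in NT GFP+ than in NT GFP− cells (SE 0.195, edgeR adjusted p = 0.0270) and 1.53 higher after anti-PD-L1 (SE 0.195, edgeR adjusted p = 0.0226), with no overlap of libraries. The 7 CD8+ T cell markers summed to 3867 to 6016 CPM, and Cd4 stayed at or under 0.919 CPM. Of the GFP+ libraries, KT13 (NT) and KT21 (anti-PD-L1) stood apart from the rest over all genes. Their median rank correlations with the other libraries were 0.941 and 0.936, against 0.967 to 0.977 for the other 10. The comparisons of the members are therefore given with all 12 libraries and with the 10 that leave out KT13 and KT21, which leaves 2 libraries in each GFP+ group. The labels give no batch and no pairing, and whether GFP+ and GFP− libraries came from the same mice is not given in the sources used here. The p-values measure the spread between libraries, each a pool of mice.

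The sequences upstream of these genes are shown first, because interferon acts on such genes through short elements there. One is the GAS element, the gamma interferon activation site, whose letters were searched as TTCNNNGAA, and another is the interferon-stimulated response element (ISRE), which IRF1 can bind and whose core was searched as GAAA, any 2 bases and GAAA, both on either strand and within the 250 bases before a transcription start. RefSeq promoter sequences (GRCm38.p6) were at hand for Gbp2, Gbp3, Gbp5, Gbp7, Igtp and Irgm1, and not for Gbp4, Gbp6, Gbp8 and Gbp9. Each of these 6 genes had at least 1 start with an ISRE core, against 936 of 27025 genes in the same collection (3.46%, and 2.98% of all 32851 promoters). The stretches with the core and up to 20 bases on either side are printed 5′ to 3′ on the strand of the gene, with the matched letters in capitals. That of Irgm1 is shorter after the core, since it ends at the last base before the start. They lie at chr3:142620584-142620633 on the plus strand for Gbp2, chr3:142559979-142560034 plus for Gbp3, chr3:142496749-142496798 plus for Gbp5, chr3:142530263-142530312 plus for Gbp7, chr11:58199502-58199551 plus for Igtp and chr11:48871421-48871470 on the minus strand for Irgm1.
Gbp2: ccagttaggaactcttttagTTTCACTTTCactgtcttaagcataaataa
Gbp3: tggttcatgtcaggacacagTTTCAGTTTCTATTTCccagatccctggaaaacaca
Gbp5: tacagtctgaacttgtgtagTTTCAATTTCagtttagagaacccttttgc
Gbp7: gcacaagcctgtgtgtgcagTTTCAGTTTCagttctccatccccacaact
Igtp: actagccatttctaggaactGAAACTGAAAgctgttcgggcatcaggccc
Irgm1: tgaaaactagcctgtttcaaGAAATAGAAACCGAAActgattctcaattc

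The 4 Gbp genes carry the core in its reverse complement form and Igtp and Irgm1 carry it in the forward form. Gbp3 and Irgm1 hold 2 overlapping copies that share GAAA. In 5 of the 6 genes a core begins within the 60 bases before the start, at position −59 in Gbp2, −45 in Gbp3, −53 in Gbp7, −34 in Igtp and −30 in Irgm1. In Gbp5 it begins at −165. A second annotated start of Gbp3 had no match in its window.

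The GAS letters were found in 3 of the 6 genes, against 8.13% of the 27025 genes and 7.02% of the promoters. Gbp5 had matches at −245 and −52, Gbp7 at −106 and −87, and Igtp at −45, and no GAS match overlapped an ISRE match. A match of letters is a description of the sequence, and binding was not measured here.

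**Figure D1:**
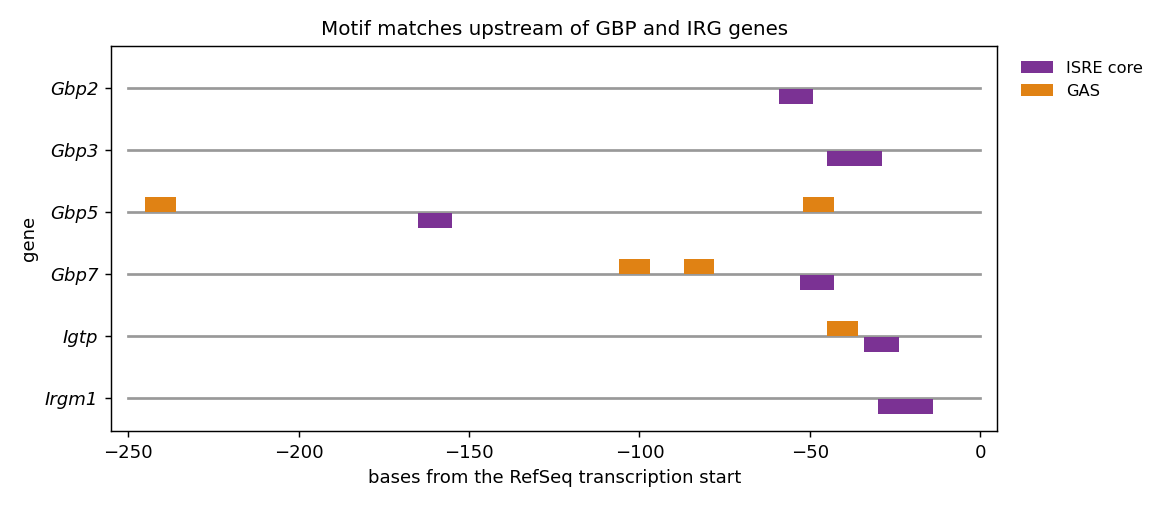
Positions of motif matches in the 250 bases before the RefSeq transcription start (x axis, bases) of the 6 genes with a promoter sequence (y axis); purple marks the ISRE core and orange the GAS letters. All 6 lines carry an ISRE core, 5 of them within 60 bases of the start, and 3 carry a GAS match.

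By position the members fall into 3 groups (GENCODE vM21, mm10). Gbp5, Gbp7, Gbp3 and Gbp2 lie in this order on the plus strand of chromosome 3 between 142493978 and 142638008. Gbp8, Gbp9, Gbp4 and Gbp6 lie on the minus strand of chromosome 5 between 105014150 and 105293698. Igtp and Irgm1 lie on chromosome 11, Igtp at 58199556 to 58207591 on the plus strand and Irgm1 at 48861968 to 48871683 on the minus strand.

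Close copies limit what the counts of some members stand for. Of the 75-base windows in the last 500 transcript bases, 70.2% of those of Gbp6 were also found in Gbp10, Gbp9 or Gm43302, and 10.9% of those of Gbp4 were found in Gbp11, Gbp6, Gbp9 or Gm43302. The share was 1.54% or less for the other 8 members and 0% for Gbp2, Gbp7, Gbp8, Igtp and Irgm1. Counts of Gbp6 may therefore contain or lack reads of its copies, and how reads with several matches were counted is not given in the sources used here. The copy Gbp10 was listed at 0.863 to 6.98 CPM, and since 100% of its own windows are found in Gbp6 or Gm43302, this level does not give its share in the counts of Gbp6.

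The GFP+ and GFP− cells were compared first in non-treated mice. Gbp4, Gbp6 and Igtp had the lowest p-values and were each lower in GFP+ cells, by a log2 fold change close to −0.5. With all 12 libraries no member was called at an adjusted p under 0.05 by edgeR, against 0.00706% of all 14173 genes tested (a single gene, Adora2a). At an unadjusted p under 0.05 there were 5 members, all lower in GFP+ cells, namely Gbp2, Gbp4, Gbp6, Gbp8 and Igtp, against 2.84% of all genes. In these same 5 members every GFP+ library lay below every GFP− library, against 6.63% of all genes. Without KT13 and KT21, Gbp6 fell in GFP+ cells and was the only member called, against 0.224% of all 14747 genes tested that were called lower and 0.339% called either way. At an unadjusted p under 0.05 there were then 4 members, Gbp4, Gbp6, Gbp9 and Igtp, all lower, against 5.17% of all genes. The GFP+ libraries lay below the GFP− libraries in 7 members, these 4 with Gbp2, Gbp8 and Irgm1, against 12.9% of all genes.

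Gbp4, one of the chromosome 5 GBP genes, had the same pattern in both treatments. It stood at 156, 175 and 164 CPM in NT GFP− libraries and at 106, 129 and 114 CPM in NT GFP+ libraries (KT13, KT15 and KT17 in this order, here and below). After anti-PD-L1 it stood at 156, 164 and 163 CPM in GFP− and 134, 104 and 136 CPM in GFP+ libraries (KT19, KT21 and KT23). Every GFP+ library lay below every GFP− library, whatever the treatment, with KT13 and KT21 the lowest of their groups. In NT cells the log2 fold change was −0.50 (SE 0.149, edgeR adjusted p = 0.562) with 12 libraries and −0.44 (SE 0.119, edgeR adjusted p = 0.149) with 10.

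Gbp6, also on chromosome 5, was the most even of all members in NT GFP− cells, at 288, 284 and 283 CPM. NT GFP+ libraries held 240, 169 and 211 CPM. The GFP− libraries after anti-PD-L1 held 243, 271 and 288 CPM and the GFP+ libraries 234, 196 and 237 CPM. Again no GFP+ library reached a GFP− library of either treatment, although KT13 came within 3 CPM of the lowest GFP− library, at 240.3 against 242.9 CPM. KT13 was the highest NT GFP+ library for Gbp6. The NT log2 fold change was −0.46 (SE 0.156, edgeR adjusted p = 0.649) with 12 libraries and −0.59 (SE 0.121, edgeR adjusted p = 0.0345) without KT13 and KT21, and without KT13 alone it was also −0.59 but was not called.

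Igtp, a regulatory IRG also named Irgm3, stood at 226, 203 and 228 CPM in NT GFP− and at 138, 171 and 156 CPM in NT GFP+ libraries. After anti-PD-L1 it stood at 203, 218 and 202 CPM in GFP− and at 176, 228 and 163 CPM in GFP+ libraries. One library, KT21, decided whether the groups overlapped after treatment. At 228 CPM it was as high as the highest of all others, and every other GFP+ library lay below every GFP− library. The NT log2 fold change was −0.50 (SE 0.157, edgeR adjusted p = 0.596) with 12 libraries and −0.43 (SE 0.116, edgeR adjusted p = 0.149) with 10.

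**Figure D2:**
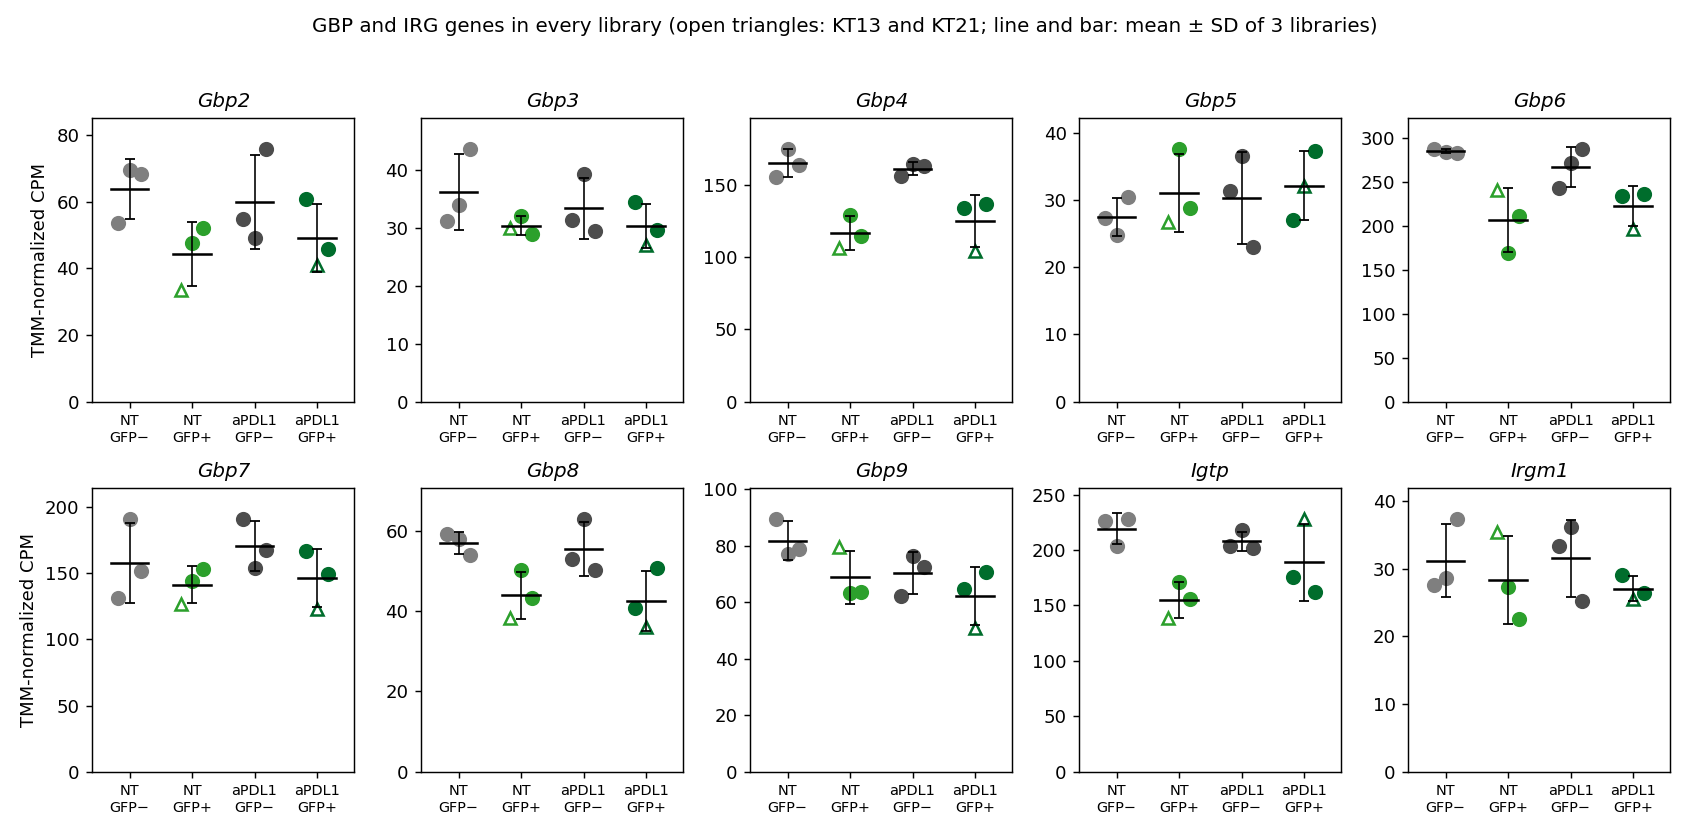
TMM-normalized CPM (y axis, linear and from 0) of the 10 genes in every library, by group (x axis; NT, non-treated; aPDL1, anti-PD-L1). Points are libraries, open triangles are KT13 and KT21, and lines with bars are the mean ± SD of 3 libraries. Gbp4 and Gbp6 show all 6 GFP+ libraries below all 6 GFP− libraries, and the open triangle of Igtp after anti-PD-L1, at 228 CPM, lies above the other 2 GFP+ libraries of that treatment.

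Gbp2 and Gbp8 were the other members with separate groups in NT cells. Gbp2, which coats the vacuole of Toxoplasma, stood at 53.6, 69.7 and 68.2 CPM in GFP− and at 33.6, 47.6 and 52.0 CPM in GFP+ libraries. Its lowest value belonged to KT13, and the gap between the groups was only that between 52.0 and 53.6 CPM. The log2 fold change was −0.52 (SE 0.221, edgeR adjusted p = 0.782) with 12 libraries and −0.36 (SE 0.181, edgeR adjusted p = 0.570) with 10. Gbp8 stood at 59.2, 57.8 and 54.0 CPM in GFP− and at 38.3, 50.1 and 43.2 CPM in GFP+ libraries, a log2 fold change of −0.38 (SE 0.170, edgeR adjusted p = 0.816) with 12 libraries and −0.29 (SE 0.155, edgeR adjusted p = 0.596) with 10.

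Gbp9 and Irgm1 overlapped between the GFP groups with 12 libraries and not with 10. Gbp9 stood at 89.6, 77.2 and 78.9 CPM in NT GFP− and at 79.6, 63.4 and 63.6 CPM in NT GFP+ libraries. Irgm1, which is known to protect expanding CD4+ T cells from death under interferon gamma, stood at 27.5, 28.6 and 37.4 CPM in NT GFP− and at 35.3, 27.2 and 22.5 CPM in NT GFP+ libraries. In both genes KT13 was the GFP+ library that overlapped the GFP− group, and without it the groups were separate. The log2 fold change of Gbp9 was −0.25 (SE 0.167) with 12 libraries and −0.37 (SE 0.139, edgeR adjusted p = 0.388) with 10. That of Irgm1 was −0.14 (SE 0.208) and −0.32 (SE 0.195, edgeR adjusted p = 0.650).

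Gbp3, Gbp5 and Gbp7, the remaining genes of the chromosome 3 cluster, overlapped between GFP groups in NT cells. Gbp3 held 31.1, 33.9 and 43.6 CPM in GFP− and 30.0, 32.0 and 28.9 CPM in GFP+ libraries. Gbp7, which takes part in assembling the NADPH oxidase on phagosomes, held 131, 191 and 152 CPM in GFP− and 127, 144 and 153 CPM in GFP+ libraries. Gbp5, which promotes NLRP3 inflammasome activation in macrophages, was the only member whose mean was higher in GFP+ cells. It held 27.3, 24.8 and 30.4 CPM in GFP− and 26.7, 37.7 and 28.8 CPM in GFP+ libraries. The log2 fold changes with 12 libraries were −0.26 for Gbp3 (SE 0.183), −0.16 for Gbp7 (SE 0.176) and 0.18 for Gbp5 (SE 0.210), and the lowest of their edgeR adjusted p-values with 12 or 10 libraries was 0.736.

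The same comparison after anti-PD-L1 gave no call, and the median difference over the members was smaller (−0.22 against −0.32 in NT cells with 12 libraries). Gbp7 and Irgm1 were exceptions, at −0.22 each after anti-PD-L1 against −0.16 and −0.14 in NT cells, and Gbp8 stood at −0.38 in both. With 10 libraries Gbp7 was again an exception, at −0.11 against −0.08, and Irgm1 was not, at −0.18 against −0.32. By edgeR 0 members were called with 12 libraries, against 0.0282% of all genes, and 0 with 10 libraries, against 0.17% (0.0746% lower), and DESeq2 and limma called 0 as well. At an unadjusted p under 0.05 edgeR gave 2 members, Gbp4 and Gbp8, both lower in GFP+ cells, against 1.69% of all genes, and with 10 libraries it gave Gbp4 and Igtp, against 2.73%. Every GFP+ library lay below every GFP− library in Gbp4 and Gbp6, against 5.33% of all genes. With 10 libraries, where only 2 GFP+ libraries had to lie below, Igtp joined them, against 10.6% of all genes.

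The fold changes after anti-PD-L1 ran from −0.38 (Gbp8, SE 0.170) to 0.08 (Gbp5, SE 0.210) with 12 libraries. Gbp4 had a log2 fold change of −0.37 (SE 0.149, edgeR adjusted p = 0.993) with 12 libraries and −0.25 (SE 0.118, edgeR adjusted p = 0.896) with 10. For Igtp the value depended on KT21, at −0.14 (SE 0.156, edgeR adjusted p = 0.993) with it and −0.30 (SE 0.116, edgeR adjusted p = 0.763) without KT13 and KT21. For Gbp6 it was −0.27 (SE 0.156) and −0.18 (SE 0.120). Gbp8 held 52.9, 62.9 and 50.2 CPM in GFP− and 40.8, 36.1 and 50.7 CPM in GFP+ libraries, so that KT23 alone reached the GFP− range.

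The other members overlapped after anti-PD-L1. Gbp2 held 54.9, 49.1 and 76.0 CPM in GFP− and 60.7, 41.0 and 45.7 CPM in GFP+ libraries, and Gbp9 held 62.3, 76.5 and 72.6 CPM and 64.9, 50.8 and 70.8 CPM. Gbp7 held 191, 154 and 167 CPM in GFP− and 167, 123 and 150 CPM in GFP+ libraries. In Gbp2, Gbp7 and Gbp9 KT21 was the lowest of the 6 libraries. Gbp3 held 31.3, 39.3 and 29.4 CPM and 34.4, 26.9 and 29.6 CPM, Gbp5 held 31.4, 36.6 and 23.0 CPM and 27.1, 32.2 and 37.3 CPM, and Irgm1 held 33.4, 36.1 and 25.1 CPM and 29.1, 25.6 and 26.4 CPM, each time GFP− before GFP+.

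Averaged over both treatments, Gbp4, Gbp6 and Igtp were lower in GFP+ cells, and the call depended on KT13 and KT21. Without these libraries edgeR called all 3, against 0.617% of the 14747 genes tested that were called lower. Gbp6 fell by 0.39 on the log2 scale (SE 0.0854, edgeR adjusted p = 0.0212), Igtp fell by 0.36 (SE 0.0822, edgeR adjusted p = 0.0262) and Gbp4 fell by 0.35 (SE 0.0837, edgeR adjusted p = 0.0419). These 3 were lower in every GFP+ library than in every GFP− library of both treatments, against 1.28% of all genes. With all 12 libraries edgeR called none of them, against 0.31% of all genes, although their estimates were similar, at −0.43 for Gbp4 (SE 0.105, edgeR adjusted p = 0.144), −0.36 for Gbp6 (SE 0.111, edgeR adjusted p = 0.334) and −0.32 for Igtp (SE 0.111, edgeR adjusted p = 0.437).

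With all 12 libraries, 2 other tools made calls in this averaged comparison, and both called more genes overall than edgeR, 158 by DESeq2 and 126 by limma against 44. DESeq2 called Gbp4 (−0.42, SE 0.108, DESeq2 adjusted p = 0.0125), and limma, with weights that count a library that stands apart less, called Gbp4 (−0.39, limma adjusted p = 0.0258) and Igtp (−0.37, limma adjusted p = 0.0374). The weights were 0.348 for KT13 and 0.230 for KT21, and 0.718 to 1.89 for the others. In Gbp4 and Gbp6 all 6 GFP+ libraries lay below all 6 GFP− libraries, against 0.529% of all genes.

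The remaining members had averaged edgeR estimates of −0.40 (Gbp2, SE 0.156, adjusted p = 0.509), −0.38 (Gbp8, SE 0.120, adjusted p = 0.371), −0.22 (Gbp9, SE 0.118), −0.20 (Gbp3), −0.19 (Gbp7, SE 0.124), −0.18 (Irgm1, SE 0.147) and 0.13 (Gbp5, SE 0.148) with 12 libraries. With 10 libraries they were −0.27 (Gbp2), −0.28 (Gbp8), −0.21 (Gbp9), −0.15 (Gbp3), −0.10 (Gbp7), −0.25 (Irgm1) and 0.18 (Gbp5), with none called. At an unadjusted p under 0.05 there were 5 members with 12 libraries, against 3.66% of all genes, and 6 with 10, against 5.59%. Of the 10 members 9 had a negative estimate in each of the 3 GFP comparisons in both sets of libraries, Gbp5 being the exception. The share of all genes with a negative estimate was 49.7% in NT cells, 49.9% after anti-PD-L1 and 49.4% averaged with 12 libraries, and 50%, 49.2% and 50.7% with 10. The median over the members was −0.32 in NT cells, −0.22 after anti-PD-L1 and −0.27 averaged, and over all genes it was 0.00 in each. Members share the libraries and some of their sequence, so these counts describe the list and are not tested as one.

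**Figure D3:**
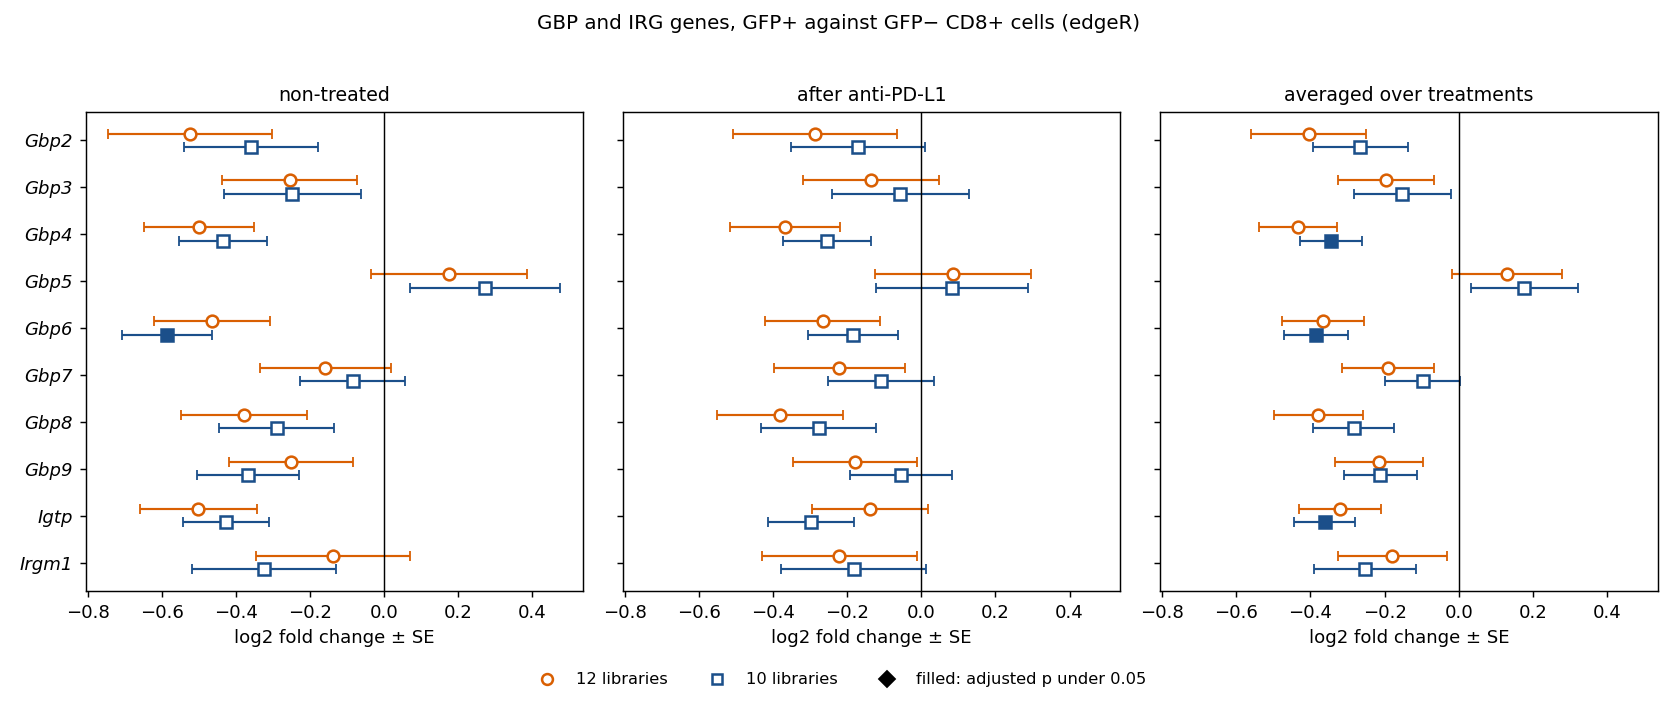
log2 fold change ± SE (x axis) of GFP+ against GFP− cells for the 10 genes (y axis), in non-treated cells, after anti-PD-L1 and averaged, from edgeR with 12 libraries (orange circles) and without KT13 and KT21 (blue squares). Filled marks have an adjusted p under 0.05, namely Gbp6 in non-treated cells (−0.59) and Gbp4, Gbp6 and Igtp averaged, all with 10 libraries. Gbp5 is the only gene to the right of 0.

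The split between GFP groups was alike in most members, while the order of treatments within it differed between some of them. In 9 of 10 members both GFP− group means lay above both GFP+ group means, against 21.2% of all genes, and with 10 libraries this held for 8 members, against 18.1%. For Gbp4 the group means ± SD (n = 3) were 165 ± 9.70 CPM in NT GFP−, 161 ± 4.48 in GFP− after anti-PD-L1, 125 ± 17.8 in GFP+ after anti-PD-L1 and 117 ± 11.8 in NT GFP+. For Gbp6 they were 285.0 ± 2.31, 267 ± 22.8, 222 ± 22.7 and 207 ± 36.1 CPM in the same order. For Igtp they were 219 ± 13.9, 208 ± 8.75, 189 ± 34.7 and 155 ± 16.4 CPM. In these 3 genes the first 2 groups overlapped and the last 2 groups overlapped, and the step in between separated the libraries of Gbp4 and Gbp6, and those of Igtp apart from KT21. While these 3 genes shared 1 order of means, Gbp7 and Gbp9 had others, with overlapping libraries. The Gbp7 mean in GFP− cells was 171 CPM after anti-PD-L1 and 158 CPM in NT. For Gbp9 in GFP+ cells it was 62.2 CPM after anti-PD-L1 and 68.9 CPM in NT.

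Anti-PD-L1 was then compared with no treatment within each GFP group. No member was called by edgeR, DESeq2 or limma in either group. With 12 libraries edgeR called 0.0141% of all genes in GFP+ cells and 0% in GFP− cells, and with 10 libraries 0.563% and 0.373%. At an unadjusted p under 0.05 there were 0 members with 12 libraries, against 6.74% and 3.44% of all genes, and with 10 libraries there was 1 in GFP+ cells, Gbp6, against 8.54%, and 0 in GFP− cells, against 7.22%. Averaged over GFP, edgeR called 0 members, against 0.395% of all genes with 12 libraries and 1.36% with 10, and 0 had an unadjusted p under 0.05, against 7.67% and 11.2%. The estimates ran from −0.15 (Gbp9) to 0.29 (Igtp) in GFP+ cells and from −0.22 (Gbp9) to 0.14 (Gbp5) in GFP− cells, with SE of 0.148 to 0.221. With 10 libraries they ran from −0.05 (Gbp5) to 0.31 (Gbp6) in GFP+ cells and from −0.22 (Gbp9) to 0.14 (Gbp5) in GFP− cells. In GFP+ cells the direction turned between both sets for Gbp9 (−0.15 to 0.10), Irgm1 (−0.07 to 0.16) and Gbp5 (0.05 to −0.05), none of them called.

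Some values in this comparison moved with KT13 and KT21. Igtp had 0.29 (SE 0.157, edgeR adjusted p = 0.809) in GFP+ cells with 12 libraries and 0.05 (SE 0.126) without KT13, its lowest library, and KT21, its highest. Leaving out 1 of them alone gave 0.21 (KT13) and 0.13 (KT21). Gbp6 in GFP+ cells had 0.11 (SE 0.156) with 12 libraries and 0.31 (SE 0.131, edgeR adjusted p = 0.488) with 10, where 234 and 237 CPM after treatment stood against 169 and 211 CPM without it. Gbp4, Gbp6 and Gbp9 had both treated libraries above both NT libraries in that set, against 19.6% of all genes. Gbp9 in GFP− cells was the only member whose libraries were separate with all 12, at 62.3 to 76.5 CPM after treatment against 77.2 to 89.6 CPM, a log2 fold change of −0.22 (SE 0.167, edgeR adjusted p = 1), against 6.26% of all genes with every treated library lower.

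Whether the GFP difference itself depended on treatment was tested by the interaction term. It was called by edgeR in 0 members and 0% of all genes, with 12 or 10 libraries. With 12 libraries the terms ran from −0.09 (Gbp5, SE 0.297) to 0.36 (Igtp, SE 0.221), and 0 members had an unadjusted p under 0.05, against 2.08% of all genes. With 10 libraries Gbp6 had a term of 0.40 (SE 0.169, edgeR adjusted p = 0.9998), against 4.29% of all genes with an unadjusted p under 0.05. The smaller GFP difference after anti-PD-L1 was thus not shown to differ from that in NT cells.

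**Figure D4:**
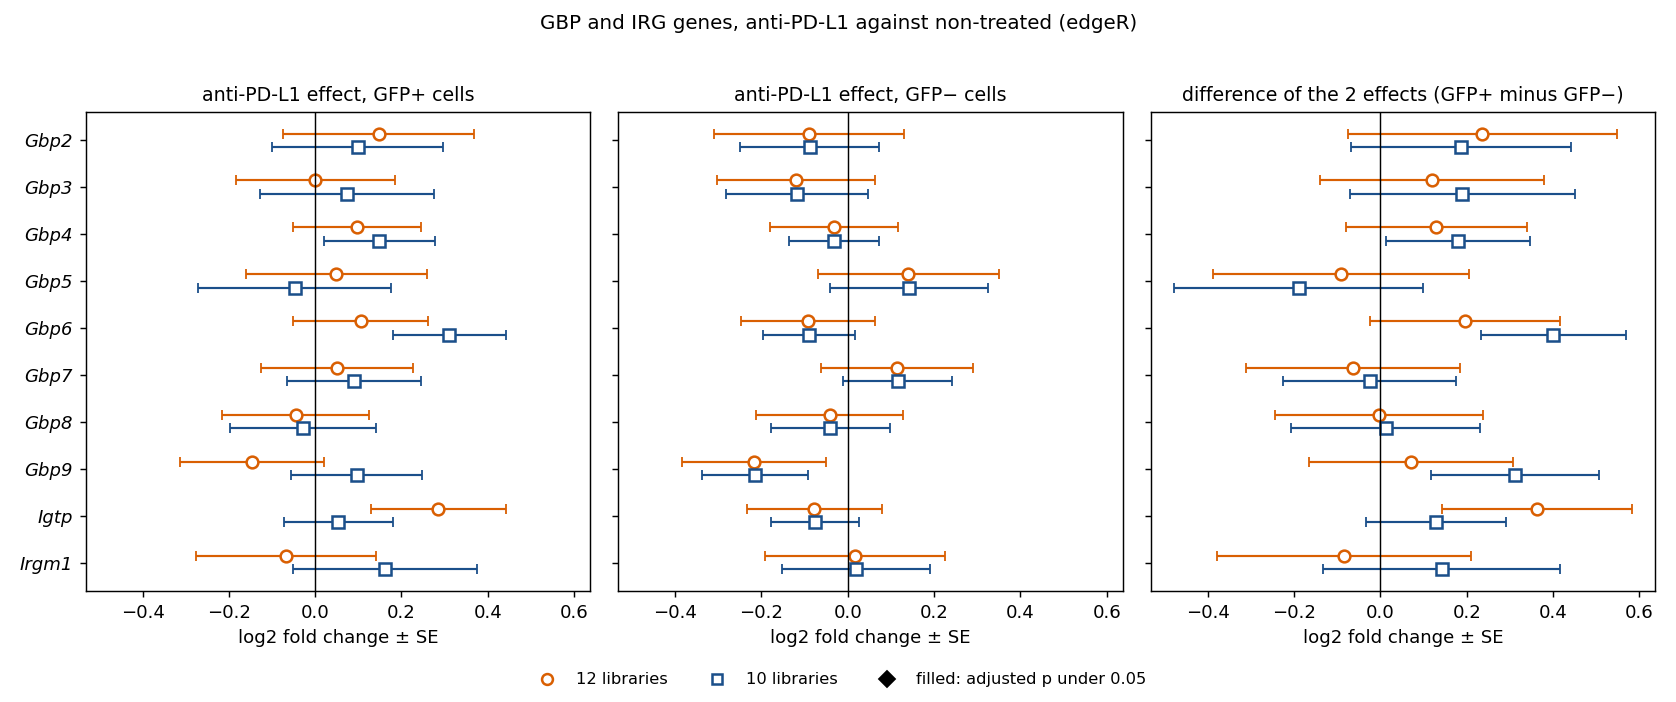
log2 fold change ± SE (x axis) of anti-PD-L1 against non-treated for the 10 genes (y axis) in GFP+ cells, in GFP− cells, and the difference between both (the interaction term), from edgeR with 12 libraries (orange circles) and without KT13 and KT21 (blue squares). No mark is filled, since no adjusted p was under 0.05, and in GFP+ cells Gbp9 (−0.15 and 0.10), Igtp (0.29 and 0.05), Irgm1 (−0.07 and 0.16) and Gbp6 (0.11 and 0.31) differ between the sets of libraries.

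Related GTPases outside the 10 members were also mostly lower in GFP+ cells by their estimates. The list held Gbp2b, Gbp10, Gbp11, Irgm2, Iigp1, Tgtp1, Tgtp2, Mx1, Mx2 and Gvin1, of which 9 could be tested and Gbp2b, at no more than 0.465 CPM, could not. Averaged over treatments edgeR called 0 of 9 with 12 libraries and 1 of 9, Mx1, with 10, against 0.31% and 1.08% of all genes, and 8 and 9 of 9 had negative estimates, against 49.4% and 50.7%. Mx1, a gene of the dynamin-like GTPases that type I interferon induces, fell by 0.50 on the log2 scale (SE 0.100, edgeR adjusted p = 0.0107) with 10 libraries and had −0.45 (SE 0.122, edgeR adjusted p = 0.224) with 12. Iigp1, an effector IRG that is loaded onto parasite vacuoles, had −0.53 (SE 0.145, edgeR adjusted p = 0.0879) with 10 libraries and −0.60 (SE 0.156, edgeR adjusted p = 0.194) with 12.

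Irgm2 shows what the libraries that stood apart can do to a gene of this family. This further regulatory IRG gene, whose exons overlap those of Igtp by 162 bases, held 9.52 CPM in KT13 and 6.37 CPM in KT21, and 18.9 to 30.9 CPM in the other 10 libraries. Its averaged GFP estimate was −0.41 (SE 0.305) with 12 libraries and −0.04 (SE 0.133) with 10. The copies Tgtp1 and Tgtp2, effector IRG genes, had nearly equal counts (Tgtp1 at 96.2% to 100.2% of Tgtp2), and their averaged estimates were −0.21 and −0.20 with 12 libraries and −0.12 for each with 10.

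The pathway upstream of the members showed no call between GFP groups. Of 5 tested ligands and receptors 0 were called in the averaged comparison with either set, of 10 JAK, STAT and IRF genes 0, and of 6 inhibitors of the pathway 0, against 0.31% of all genes with 12 libraries and 1.08% with 10. At an unadjusted p under 0.05 there were 0 of these 21 genes with 12 libraries, against 8.18% of all genes. With 10 there were 4, against 10.3%, namely Ifng (−0.28, SE 0.0856, edgeR adjusted p = 0.162), Stat2 (−0.35, SE 0.109, edgeR adjusted p = 0.176) and Socs1 (−0.28, SE 0.0978, edgeR adjusted p = 0.255), all lower in GFP+ cells, and Socs3, an inhibitor of cytokine signalling, at 0.41 (SE 0.103, edgeR adjusted p = 0.0598), which is named after its value was seen. With 12 libraries their estimates were −0.19, −0.14, −0.44 and 0.02.

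Ifng, the ligand, held 501, 398 and 380 CPM in NT GFP− and 410, 291 and 308 CPM in NT GFP+ libraries, and after anti-PD-L1 it held 508, 525 and 470.0 CPM in GFP− and 464, 499.7 and 507 CPM in GFP+ libraries. Averaged over GFP, Ifng rose with anti-PD-L1 by 0.47 on the log2 scale with 10 libraries (edgeR adjusted p = 0.003125) and was not called with 12 (0.39, SE 0.114, edgeR adjusted p = 0.273). The 10 members had a median of 0.03 in that same comparison with 10 libraries and 0.02 with 12, and 0 calls in both. Irf1, a transcription factor that interferon gamma induces, had an averaged GFP estimate of −0.16 (SE 0.152) with 12 libraries and −0.22 (SE 0.125) with 10.

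Other genes that interferon gamma induces were also mostly not called. Of 17 tested, which include chemokines, antigen-processing genes and Cd274, edgeR called 0 with 12 libraries and 1 with 10 in the averaged GFP comparison, against 0.31% and 1.08% of all genes. That gene, Cxcl10, a chemokine that draws CXCR3-bearing T cells, fell by 0.40 on the log2 scale in GFP+ cells (SE 0.0917, edgeR adjusted p = 0.0285) with 10 libraries and had −0.35 (SE 0.151, edgeR adjusted p = 0.574) with 12. The median of these 17 was −0.07 with 12 libraries and −0.10 with 10. A further list held 12 genes, of which 10 belong to ATG8 conjugation, the autophagy machinery that guides GBP and IRG proteins to their target membranes, and the others are Isg15 and Trim21. Of these 12, of 7 inflammasome genes and of 6 enzymes that attach or process the lipid anchor some GBP proteins carry, 0 were called in the averaged GFP comparison in either set, against the same 0.31% and 1.08%.

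**Figure D5:**
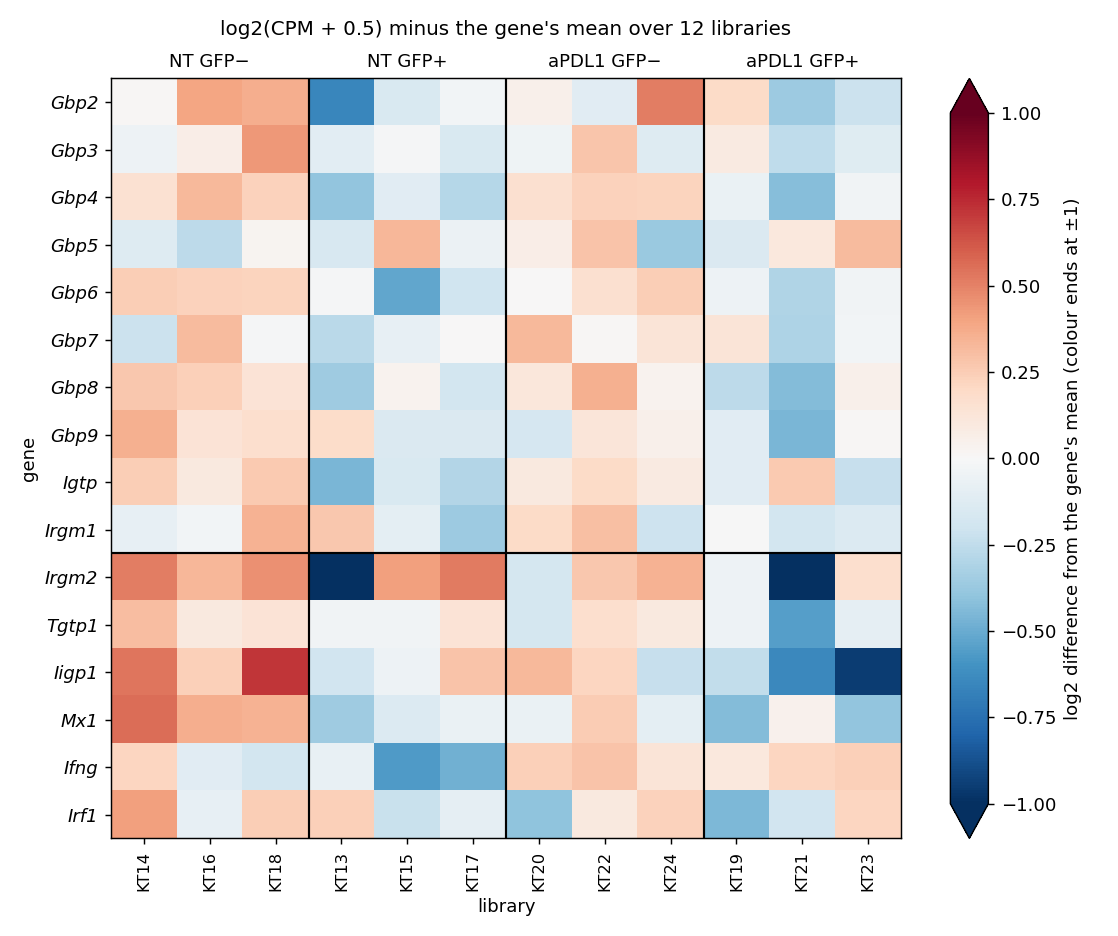
log2(CPM + 0.5) minus the mean of each gene over 12 libraries (colour, ends at ±1), for the 10 members above the black line and 6 related genes below it (y axis), by library and group (x axis). The GFP− columns are mostly red and the GFP+ columns mostly blue for the members other than Gbp5, and Irgm2 is at the blue end in KT13 and KT21 (9.52 and 6.37 CPM).

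Markers of other cells that moved with the groups were measured beside these results. In sorted bulk samples fewer cells of a type and less RNA per cell cannot be told apart. The 13 macrophage and monocyte markers, all detected, summed to 160 to 237 CPM in NT GFP−, 214 to 299 in NT GFP+, 81.8 to 138 in anti-PD-L1 GFP− and 89.5 to 178 in anti-PD-L1 GFP+ libraries. The ranges of the GFP groups overlapped in each treatment, and 0 of 13 were called for GFP in the averaged comparison in either set, against 0.31% and 1.08% of all genes. Averaged, all 13 had positive estimates in both sets, against 50.6% and 49.3% of all genes, and in NT cells 9 had with 12 libraries and 10 with 10. The 7 CD8+ T cell markers summed to 4540 to 4643 CPM in NT GFP− and 3867 to 4233 in NT GFP+ libraries, which did not overlap, and to 5116 to 5362 and 4633 to 6016 CPM after anti-PD-L1. Of these 7, Cd8a (−0.30) and Cd8b1 (−0.54) were called lower in GFP+ cells with 10 libraries and 0 with 12. The 4 NK cell markers, led by Klrc1, which CD8+ T cells also express, summed to 1260 to 1400 CPM in NT GFP− and 610 to 1129 in NT GFP+ libraries, and to 1491 to 1792 and 1284 to 1617 CPM after anti-PD-L1, where the groups overlapped. One of them, Klrb1c, was called higher in GFP+ cells (1.26 with 12 libraries and 1.21 with 10). The part of these markers in the GFP differences of the members was not tested.

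The other marker lists were low or mixed. The 5 B cell markers summed to at most 7.13 CPM, the 5 neutrophil markers to at most 2.76 CPM and the 7 dendritic cell markers to at most 40.04 CPM, with Ly6g and Xcr1 each at 0 in 9 or more libraries. The 2 CD4+ T cell markers summed to 6.89 to 24.9 CPM, nearly all from Foxp3. The 6 fibroblast and endothelial markers summed to 9.55 to 81.7 CPM, with the highest value in an NT GFP+ library. The 5 tumor epithelial markers summed to 135 to 325 CPM, mostly from Cdh1, which CD8+ T cells in tissues can express, and after anti-PD-L1 they were lower in GFP+ (135 to 198 CPM) than in GFP− (201 to 304 CPM) libraries. Their part was not tested.

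The members did not vary as one block across libraries. Over the 12 libraries, Pearson's r between pairs of members, on log2(CPM + 0.5), had a median of 0.41 and ran from −0.53 to 0.89, and over 10 libraries it had a median of 0.35 and ran from −0.84 to 0.88. Gbp4 had the highest median r with the others over 12 libraries (0.60) and Igtp over 10 (0.69). Gbp5 had the lowest in both (−0.17 and −0.25). These are descriptions, since the libraries share the group structure.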

How the data were processed

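Expression was measured in 12 QuantSeq 3′ libraries of sorted CD8+ T cells, 3 per group, with groups taken from the labels. The authors deposited raw counts for each Ensembl gene and library, in 1 table. Per the study, 75-base reads were trimmed by Cutadapt, HISAT2 placed them on mm10 and featureCounts assigned them to genes. The submitters' processing notes name cutadapt 1.7 and Subread 1.6.4, while the study's methods name other versions. The handling of strand and of multiply matching reads is not given in the sources used here. Symbols came from GENCODE vM21 (52489 of 52636 identifiers matched, 147 not).

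Counts were normalized by TMM, filtered by filterByExpr and compared with edgeR 4.0.16 (R 4.3.3), glmQLFit and glmQLFTest in 1 fit over the 4 groups with no covariates, and p-values were adjusted by Benjamini-Hochberg over all genes tested (threshold 0.05). The SE is the absolute log2 fold change divided by the square root of F. DESeq2 1.42.0 and limma 3.58.1 (voom with sample quality weights) were alternatives, besides other normalizations and filters and the omission of single libraries. The limma fit and the DESeq2 fit without KT13 and KT21 were chosen after seeing the data. The edgeR and DESeq2 scripts were tested on simulated counts. Within groups, no 2 libraries agreed within sampling noise (chi-square per degree of freedom at least 12.6).

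The members, gene lists and the omission of KT13 and KT21 were chosen with earlier results of these data known. All members are named, and of the lists, genes called in a comparison could be named, besides a fixed few of the pathway whatever their result. Each member is compared across libraries only. Levels of different genes were set against each other only for Tgtp1 and Tgtp2 and to name the main genes of some marker sums. Promoters came from RefSeq (GRCm38.p6), and figures were drawn with matplotlib. Results for some genes are not reported here.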

Additional observations from a re-analysis of the deposited data

How the results depend on the processing

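The median log2 fold change of the members stayed negative for GFP under all alternatives run, from −0.35 to −0.29 in non-treated cells, −0.29 to −0.17 after anti-PD-L1 and −0.29 to −0.24 averaged. The number of members called did not. In non-treated cells it was 0 with all libraries, 1 without KT13 and KT21 and 3 by DESeq2 without them, and averaged over treatments it was 0, 3 and 3, with 1 by DESeq2 and 2 by limma on 12 libraries. No member was called after anti-PD-L1, between treatments or for the interaction under any alternative. Over all genes, calls in non-treated cells numbered 1 by edgeR, 53 by DESeq2, 12 by limma, 78 with no filter beyond 1 count and 50 without KT13 and KT21, and averaged they numbered 44, 158, 126, 204 and 159. Across all settings run, calls over all genes ranged from 0 to 131 in non-treated cells and from 13 to 256 averaged. The members called thus have to be read beside totals that also moved with the setting. Averaged estimates ran from −0.47 to −0.34 for Gbp4, −0.43 to −0.30 for Gbp6 and −0.40 to −0.25 for Igtp. Some estimates near 0 changed sign. With 1 library left out, Irgm1 in non-treated cells ran from −0.33 to 0.01 (0.00 without KT17, 0.01 without KT18). After anti-PD-L1 Gbp3 ran from −0.24 to 0.02 (without KT22), and Gbp5 from −0.07 (without KT24; −0.01 without KT23) to 0.26. Between treatments Gbp6 ran from −0.02 (without KT15) to 0.23 in GFP+ cells, and averaged over GFP it had −0.01 with upper-quartile normalization, 0.00 with at least 10 counts in every library and −0.06 to 0.07 with 1 library left out, below 0 without KT15, KT19, KT23 or KT24. Gbp4 in GFP− cells ran from −0.07 to 0.03 (without KT16). Igtp averaged over GFP had −0.01 without KT13 and KT21 and −0.02 by DESeq2 without them. The causes were not tested. Under the alternatives, treatment values were followed for Gbp4, Gbp6 and Igtp only. A fit of only the groups compared gives no averaged or interaction value. No paired analysis was run. The library codes alternate between GFP+ and GFP− cells in consecutive numbers, but the sources used here do not name neighbours as pairs. Whether a fit blocked on neighbouring codes would change a value or a call was not tested. The pools number 3 per group, which limits precision, and this limit was not compared with that of depth.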

Other observations

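The genes whose pattern over libraries was most like that of the members were ranked by Pearson's r between log2(CPM + 0.5) and the mean of the centred and scaled members. Over the 12 libraries the 10 most alike, of 14173 genes tested, were Mrpl32 (r = 0.92), Tgfbr3 (0.89), 4933407K13Rik (0.89), Elovl6 (0.89), Arhgap30 (0.89), Socs2 (0.88), Cish (0.88), 5830411N06Rik (0.88), B4galt5 (0.88) and Ccnb1-ps (0.87). Socs2 and Cish encode inhibitors of cytokine receptor signalling that STAT5 induces. Without KT13 and KT21 the 10 most alike shared 1 gene with this list, Mrpl32, and Socs2 and Cish had r = 0.88 and 0.83. Irf1 had r = 0.24 over 12 and 0.35 over 10 libraries, and Ifng 0.25 and 0.47. Adora2a had r = −0.83 and −0.78. All libraries share the GFP and treatment groups, and these values are descriptions.

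Some genes of the fixed lists were called by edgeR between treatments, averaged over GFP, where no member was. Over all genes 0.395% were called with 12 libraries and 1.36% with 10. With 12 libraries the calls on the lists were C1qa (edgeR adjusted p = 0.0317) and Lyz2 (edgeR adjusted p = 0.0461), both among the 13 macrophage and monocyte markers and both lower after anti-PD-L1. With 10 libraries 4 of these 13 were called lower, namely C1qa (−1.06), Apoe (−1.01), Csf1r (−1.30) and Lyz2 (−1.46). Of 7 inflammasome genes, 0 were called with 12 libraries, and with 10 Casp4, an inflammatory caspase, was called higher (0.65, edgeR adjusted p = 0.0301; 0.59 with 12) and Il1b, an inflammatory cytokine, was called lower (−1.23, edgeR adjusted p = 0.0474; −1.41 with 12). With 10 libraries Cxcl10 was also called lower (−0.51; −0.73 with 12), as was Dcn, a fibroblast marker (−3.63), and Cd8a (0.38), Cd3g (0.32), Klrc1 (0.43) and Ifng were called higher.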
